A study of Mus musculus with 9 samples.

Results

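The genes described here are 40 mouse genes of the lysosome: 27 hydrolases and activator proteins of its lumen, 6 proteins of its membrane, 3 subunits of its proton pump, the growth factor precursor progranulin, and the 3 MiT/TFE transcription factors that act on lysosomal genes. They were chosen by gene symbol, from probe sets that carry 1 symbol only, and where a gene had more than 1 such probe set the one with the highest mean over the 9 arrays was used. All 40 were measured, out of 19938 genes on the array. The selection rule used no difference between groups, but the genes were chosen with earlier results of these data known.

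Osteosarcoma, the commonest primary tumour of bone, was represented by 3 cell lines from adult C57BL/6 mice of the genotype Osx-Cre p53fl/fl Rbfl/fl, in which Cre under the osteoblast-lineage promoter Osx deletes p53 and Rb. Each line had 1 array. Line 2 came from a male and lines 1 and 3 from females, all are called fibroblastic in the labels, and all were growing subconfluently below passage 8. The osteoblasts were 3 cultures of Kusa4b10, a mouse stromal line, kept for 21 days in medium with ascorbate, and the pre-osteoblasts were 3 undifferentiated Kusa4b10 cultures. For the Kusa4b10 cultures the labels give no strain, sex or engineered allele, and call them independent samples of 1 line. In both osteosarcoma comparisons the tumour state cannot be told apart from the line of origin. Against the 21-day osteoblasts it also cannot be told apart from culture time, culture conditions or proliferation. In the Kusa4b10 comparison the effect of differentiation cannot be told apart from that of culture time, medium or proliferation. The 3 comparisons share their arrays, so their values are given side by side and are not independent of each other. All p-values rest on the spread between these lines and cultures.

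Levels are log2 values per gene, made by the authors with RMA, and a difference of 1 is a 2-fold change. A gene was called where limma's adjusted p (Benjamini-Hochberg over 19938 genes) was below 0.05, and errors of differences are standard errors. Array medians lay between 7.43 and 7.56 and lower quartiles between 5.99 and 6.12. The floxed gene Rb1 had log2 levels of 9.26, 9.67 and 9.85 in osteosarcoma lines 1 to 3, against 10.65, 10.63 and 10.64 in osteoblasts and 9.28, 9.28 and 9.17 in pre-osteoblasts. The lines therefore lay below the osteoblasts (-1.05 ± 0.13, adjusted p = 0.000767) and not below the pre-osteoblasts (0.35 ± 0.13, adjusted p = 0.0965). Whether its probe set lies inside the deleted part was not analysed here, nor was the gene for p53. RNA came from whole cultures, so fewer cells of a type and less RNA per cell cannot be told apart.

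Lysosomes are acidic, membrane-bound compartments that degrade proteins, glycans, lipids and nucleic acids delivered by endocytosis, phagocytosis and autophagy. Most of their enzymes receive a mannose 6-phosphate tag in the Golgi and are sorted to the lysosome by receptors that recognise it, while the V-ATPase pumps in the protons the enzymes need. TFEB, TFE3 and MITF are basic helix-loop-helix factors that enter the nucleus when lysosomal nutrient signalling is low and bind E-boxes in lysosomal gene promoters. In bone, lysosomal enzymes are best known from the osteoclast, which secretes acid and cathepsin K to dissolve matrix.

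The E-box was looked for in the promoters of these genes as RefSeq gives them (GRCm38.p6, 250 bases before to 50 after each start), because the results include the factors that bind it. The motifs were TCACGTGA and its core CACGTG. Both read the same on either strand, and every match of the longer one contains a match of the core. Promoter windows were found for 35 of the 40 genes. Asah1, Atp6v1h, Ctsb, Ctsh and Galns had no entry. TCACGTGA stood in 6 of the 35 genes (17.1%), against 1.12% of all 27025 genes with a window. The core stood in 12 of the 35 (34.3%), against 8.09% of all genes. Both motifs stood more often in the set than in genes in general, and no other motif was searched. The 6 genes with the longer motif are shown with the sequence around it. Capitals mark the longer motif in these lines and the core in the Lamp1 and Naglu lines further down. Each line reads 5′ to 3′ on the gene's own strand.

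Mcoln1, chr8:3500443-3500510, plus strand: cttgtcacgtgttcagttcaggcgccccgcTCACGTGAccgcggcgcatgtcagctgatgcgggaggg
Ctsa, chr2:164833730-164833792, plus strand: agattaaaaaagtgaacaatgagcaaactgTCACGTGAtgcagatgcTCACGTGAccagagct
Ctsd, chr7:142387889-142387956, minus strand: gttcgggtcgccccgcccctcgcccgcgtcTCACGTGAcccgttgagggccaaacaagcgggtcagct
Gla, chrX:134601163-134601255, minus strand: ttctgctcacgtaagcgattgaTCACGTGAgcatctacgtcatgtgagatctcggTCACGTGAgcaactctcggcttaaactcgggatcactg
Atp6v0d1, chr8:105566045-105566098, minus strand: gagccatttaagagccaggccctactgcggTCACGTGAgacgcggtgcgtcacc
Atp6v1a, chr16:44139354-44139421, minus strand: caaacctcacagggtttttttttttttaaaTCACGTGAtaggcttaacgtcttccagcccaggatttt

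Gla carries the longer motif at 228 and at 195 bases before its start, Atp6v1a at 132, Ctsd at 99 and Mcoln1 at 46. Ctsa has 2 windows, and both copies lie in the second, 1 beginning 13 bases before that window's start and another just after it. The window of the first Ctsa start holds neither motif. In Atp6v0d1 the motif spans the start. Mcoln1 and Ctsd each hold a further core outside the longer motif, 71 and 245 bases before the start. That of Mcoln1 lies in its printed line in lower case, and that of Ctsd lies outside the printed stretch. Genes with the core but not the full longer motif were Ctsl, Gaa, Glb1, Lamp1, Naglu and Sgsh. Lamp1 is shown because it holds 4 cores within 61 bases of its start, and Naglu because it is the core-bearing gene whose osteoblast level stood 2-fold apart from both other groups.

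Lamp1, chr8:13159070-13159180, plus strand: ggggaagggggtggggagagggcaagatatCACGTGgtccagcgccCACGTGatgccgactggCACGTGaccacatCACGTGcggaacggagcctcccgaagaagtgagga
Naglu, chr11:101069991-101070056, plus strand: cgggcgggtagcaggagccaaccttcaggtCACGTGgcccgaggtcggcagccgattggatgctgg

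Neither motif was found in the windows of Tfeb, Tfe3 or Mitf. A match is a description of letters, and its absence concerns this window only. Of the 6 genes with TCACGTGA, 5 were lower in osteosarcoma than in osteoblasts and 2 were higher in osteoblasts than in pre-osteoblasts. Of the 29 without it, 15 and 13 were. Median differences were -0.70 with the motif and -0.34 without it for osteosarcoma against osteoblasts, and 0.34 with it and 0.33 without it for osteoblasts against pre-osteoblasts. For the core, 8 of 12 genes with it and 12 of 23 without it were lower in osteosarcoma than in osteoblasts (medians -0.57 and -0.34). In osteoblasts against pre-osteoblasts, 5 of the 12 and 10 of the 23 were higher (medians 0.36 and 0.22).

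Most of the lysosomal genes were lower in the osteosarcoma lines than in osteoblasts, and the share called between the lines and pre-osteoblasts was near that of all genes. Of the 40, 22 were lower and 3 higher in osteosarcoma than in osteoblasts, or 55.0% and 7.5%, where 12.7% and 14.7% of all genes were called lower and higher. Their median difference was -0.42, against -0.02 over all genes. Against pre-osteoblasts, 4 were lower and 4 higher in osteosarcoma, or 10.0% each, where 13.5% and 9.96% of all genes were called. The median was then -0.08, against -0.02 over all genes. In osteoblasts, 17 of the 40 were higher and 3 lower than in pre-osteoblasts, or 42.5% and 7.5%, where 10.3% and 15.8% of all genes were called, and the median was 0.31 against 0.00. An F test over the groups called 28 of the 40, and 38.4% of all genes.

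**Figure D1:**
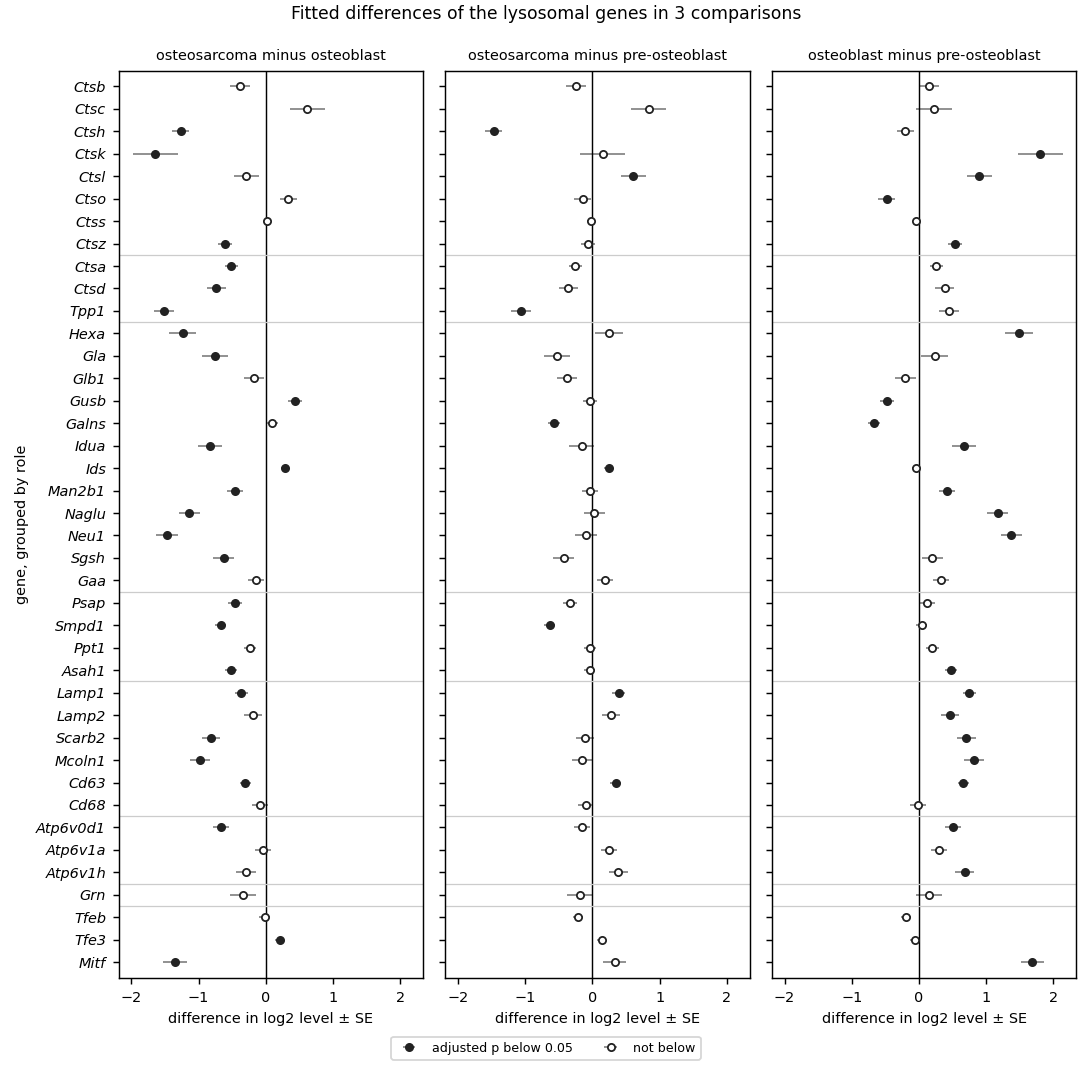
Fitted differences in log2 level (x axis, point ± standard error) of the 40 lysosomal genes (y axis, grouped by role) for osteosarcoma minus osteoblast, osteosarcoma minus pre-osteoblast and osteoblast minus pre-osteoblast, with filled points where the adjusted p was below 0.05. In the left panel 22 filled points lie left of 0 and 3 right of it, in the middle panel 4 and 4, and in the right panel 3 and 17.

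Of these genes, 7 differed at least 2-fold between osteosarcoma and osteoblasts, all downward, where 2.78% of all genes were lower by that much: Ctsh, Ctsk, Tpp1, Hexa, Naglu, Neu1 and Mitf. Of them, Ctsh and Tpp1 were also at least 2-fold lower than in pre-osteoblasts, where 2.41% of all genes were. The other 5, Ctsk, Hexa, Naglu, Neu1 and Mitf, were at least 2-fold up in osteoblasts over pre-osteoblasts, where 2.51% of all genes were, and were not called between the lines and pre-osteoblasts.

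**Figure D2:**
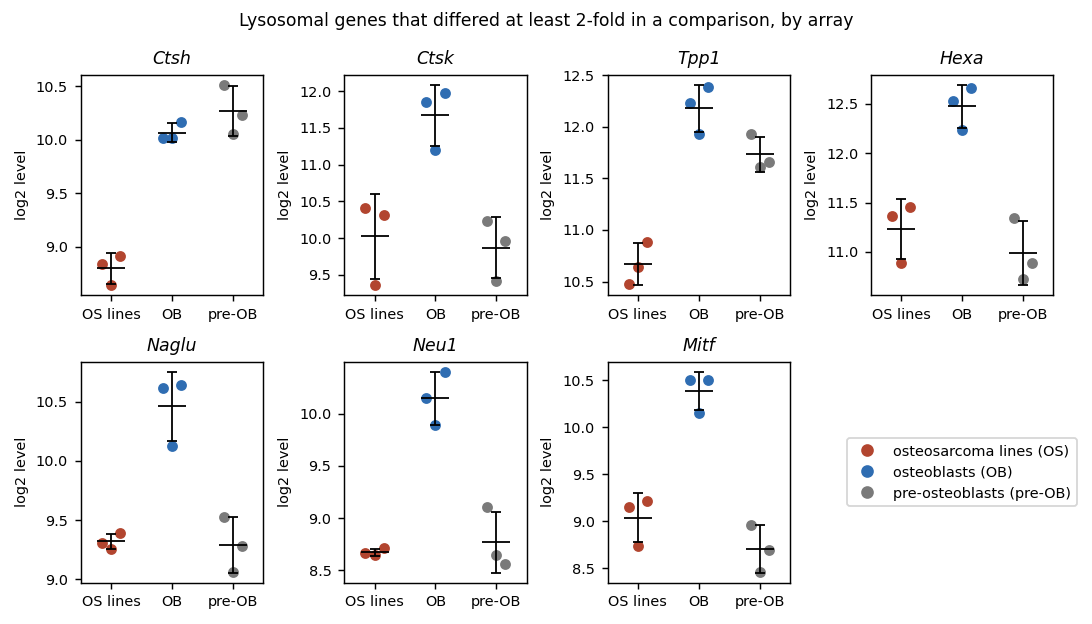
Log2 level (y axis) of the 7 lysosomal genes with a called difference of at least 2-fold, in the 3 osteosarcoma lines, 3 osteoblast cultures and 3 pre-osteoblast cultures (x axis; points are arrays, bars the group mean ± SD). In Ctsh and Tpp1 the lines stand below all 6 Kusa4b10 arrays, and in Ctsk, Hexa, Naglu, Neu1 and Mitf the osteoblasts stand above all other arrays.

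Among the 8 cysteine cathepsins, the main papain-type proteases of the lysosome, 3 were lower and none higher in osteosarcoma than in osteoblasts. The lower share was 37.5%, where 12.7% of all genes were lower and 14.7% higher. Ctsk, the collagen-degrading cathepsin of osteoclasts, had log2 levels of 10.40, 9.36 and 10.31 in the osteosarcoma lines, against 11.85, 11.20 and 11.97 in osteoblasts and 10.23, 9.42 and 9.96 in pre-osteoblasts. Osteoblasts lay above all other arrays, and the lines and pre-osteoblasts overlapped. The osteosarcoma minus osteoblast difference was -1.65 ± 0.34 (3.14-fold lower, adjusted p = 0.00712), and the osteoblast minus pre-osteoblast difference was 1.80 ± 0.34 (3.49-fold higher, adjusted p = 0.00506). Ctsh, an aminopeptidase, had levels of 8.84, 8.64 and 8.92 in the lines, against 10.01, 10.01 and 10.17 in osteoblasts and 10.52, 10.05 and 10.23 in pre-osteoblasts. Every line lay more than 1 log2 unit below every Kusa4b10 array. It was 2.41-fold lower than in osteoblasts (-1.27 ± 0.12, adjusted p = 0.000258) and 2.77-fold lower than in pre-osteoblasts (-1.47 ± 0.12, adjusted p = 0.000184). Ctsz, a carboxypeptidase, had 12.07, 12.01 and 12.31 in the lines, against 12.86, 12.57 and 12.76 in osteoblasts and 12.29, 12.11 and 12.18 in pre-osteoblasts, so only osteoblasts stood apart. It fell by 0.60 ± 0.11 in osteosarcoma against osteoblasts (adjusted p = 0.00350) and rose by 0.54 ± 0.11 in osteoblasts against pre-osteoblasts (adjusted p = 0.00631).

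Ctsl, a widely expressed endopeptidase, was the 1 cathepsin higher in osteosarcoma than in pre-osteoblasts. Its log2 levels were 12.64, 12.28 and 13.01 in the lines, against 13.07, 12.67 and 13.06 in osteoblasts and 12.16, 12.02 and 11.94 in pre-osteoblasts. The lines and osteoblasts overlapped, and both lay above the pre-osteoblasts. The difference from pre-osteoblasts was 0.61 ± 0.19 in osteosarcoma (adjusted p = 0.0473) and 0.90 ± 0.19 in osteoblasts (adjusted p = 0.00830). The osteosarcoma call was lost without line 1 or 3, osteoblast culture 1 or 3, or any 1 pre-osteoblast culture, with adjusted p between 0.0683 and 0.139. Ctso, a cysteine cathepsin of less settled function, ran the other way, with 9.63, 9.61 and 9.67 in osteoblasts and 10.38, 9.87 and 10.11 in pre-osteoblasts (-0.48 ± 0.13, adjusted p = 0.0267), beside 10.15, 9.94 and 9.83 in osteosarcoma (0.34 ± 0.13 against osteoblasts, adjusted p = 0.0942). This osteoblast call was lost without any 1 osteoblast culture or pre-osteoblast culture 1 or 3 (adjusted p between 0.0631 and 0.0775). Without pre-osteoblast culture 1 its osteosarcoma difference from osteoblasts was called (adjusted p = 0.0430).

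Ctsc, the dipeptidyl peptidase that activates the serine proteases of immune granules, separated the lines most. It had log2 levels of 5.39 in line 1, 6.51 in line 2 and 6.46 in line 3, against 5.51, 5.55 and 5.45 in osteoblasts and 5.38, 5.22 and 5.24 in pre-osteoblasts. Line 1 lay within the Kusa4b10 range, and lines 2 and 3 lay above it by more than 0.9. Line 1 and all Kusa4b10 arrays were below the arrays' lower quartiles, so the size of these differences is taken against a dim level. With all lines the differences missed the threshold, at 0.62 ± 0.26 against osteoblasts (adjusted p = 0.126) and 0.84 ± 0.26 against pre-osteoblasts (adjusted p = 0.0517). Without line 1 they were 0.98 (adjusted p = 0.000275) and 1.20 (adjusted p = 0.000132), and osteoblasts were then called above pre-osteoblasts (adjusted p = 0.0384). Ctsb, an abundant endopeptidase, had 12.62, 12.39 and 12.96 in the lines, against 13.16, 12.83 and 13.15 in osteoblasts and 13.01, 12.82 and 12.87 in pre-osteoblasts, a difference of -0.39 ± 0.15 from osteoblasts (adjusted p = 0.0919). Without line 3, its highest line, that difference was -0.54 (adjusted p = 0.0165). Ctss, the cathepsin of antigen-presenting cells, lay between 6.12 and 6.26 in all 9 arrays, close to the arrays' lower quartile, and passed no test.

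The 3 aspartic and serine proteases were all lower in osteosarcoma than in osteoblasts, where 12.7% of all genes were. Tpp1, a tripeptidyl peptidase, had log2 levels of 10.48, 10.64 and 10.89 in the lines, against 12.23, 11.93 and 12.38 in osteoblasts and 11.93, 11.61 and 11.66 in pre-osteoblasts. All lines lay below all Kusa4b10 arrays. Tpp1 was 2.85-fold lower than in osteoblasts (-1.51 ± 0.15, adjusted p = 0.000270) and 2.09-fold lower than in pre-osteoblasts (-1.07 ± 0.15, adjusted p = 0.00161). Ctsd, the major aspartic protease of lysosomes, had 12.12, 11.98 and 12.44 in the lines, against 13.01, 12.68 and 13.07 in osteoblasts and 12.66, 12.43 and 12.52 in pre-osteoblasts. Line 3 overlapped the pre-osteoblasts, and no line reached the osteoblasts. The Ctsd difference was -0.74 ± 0.14 against osteoblasts (adjusted p = 0.00577) and -0.36 ± 0.14 against pre-osteoblasts (adjusted p = 0.117). Ctsa, a carboxypeptidase that also protects the galactosidase and sialidase with which it forms a complex, had 12.46, 12.24 and 12.51 in the lines, against 12.99, 12.80 and 12.96 in osteoblasts and 12.79, 12.57 and 12.61 in pre-osteoblasts. All its lines lay below the Kusa4b10 arrays, and the difference from osteoblasts was -0.51 ± 0.10 (adjusted p = 0.00470). The pre-osteoblast call for Ctsd was gained without line 3 (adjusted p = 0.0336). None of these 3 genes was called between osteoblasts and pre-osteoblasts in the main fit. Leaving out 1 array called Tpp1 (without line 3, adjusted p = 0.0444, without osteoblast culture 2, 0.0275, or without pre-osteoblast culture 1, 0.0483), Ctsa (without line 2, 0.0456) and Ctsd (without line 3, 0.0461, or osteoblast culture 2, 0.0379). Over all 19 alternatives to the main fit, Tpp1 was called in 9, Ctsd in 5 and Ctsa in 4.

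Among the 12 glycosidases and sulfatases, enzymes that take sugars and sulfate groups off glycoproteins, glycolipids and glycosaminoglycans, 7 were lower and 2 higher in osteosarcoma than in osteoblasts. Between osteoblasts and pre-osteoblasts, 5 were higher and 2 lower. In the first comparison 58.3% were lower and 16.7% higher, against 12.7% and 14.7% of all genes. In the second 41.7% were higher and 16.7% lower, against 10.3% and 15.8%. The higher share in the first and the lower share in the second were thus near those of all genes. Neu1, the lysosomal sialidase, had log2 levels of 8.66, 8.65 and 8.71 in the lines, against 10.15, 9.89 and 10.40 in osteoblasts and 9.10, 8.64 and 8.56 in pre-osteoblasts. The lines were nearly equal, within the pre-osteoblast range, and all osteoblasts lay above it. Neu1 was 2.77-fold lower in osteosarcoma than in osteoblasts (difference -1.47 ± 0.16, adjusted p = 0.000441) and 2.60-fold up in osteoblasts over pre-osteoblasts (1.38 ± 0.16, adjusted p = 0.000608). Hexa, the alpha subunit of beta-hexosaminidase, had 11.36, 10.88 and 11.46 in the lines, against 12.53, 12.23 and 12.66 in osteoblasts and 11.35, 10.72 and 10.89 in pre-osteoblasts. Again only osteoblasts stood apart, with -1.24 ± 0.21 for osteosarcoma minus osteoblast (2.36-fold lower, adjusted p = 0.00277) and 1.49 ± 0.21 for osteoblast minus pre-osteoblast (2.80-fold higher, adjusted p = 0.00129). Naglu, which degrades heparan sulfate and whose promoter is printed above, had 9.31, 9.26 and 9.39 in the lines, against 10.62, 10.12 and 10.64 in osteoblasts and 9.53, 9.06 and 9.28 in pre-osteoblasts. It was 2.20-fold lower in osteosarcoma than in osteoblasts (difference -1.14 ± 0.16, adjusted p = 0.00124) and 2.25-fold up in osteoblasts over pre-osteoblasts (1.17 ± 0.16, adjusted p = 0.00121).

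Idua, the iduronidase of dermatan and heparan sulfate, followed the same order with 8.95, 9.04 and 9.08 in the lines, against 9.94, 9.60 and 10.03 in osteoblasts and 9.59, 8.89 and 9.06 in pre-osteoblasts. It fell by 0.84 ± 0.18 in osteosarcoma against osteoblasts (adjusted p = 0.00979) and rose by 0.67 ± 0.18 in osteoblasts against pre-osteoblasts (adjusted p = 0.0264). Man2b1, the alpha-mannosidase, had 10.83, 10.59 and 10.63 in the lines, against 11.33, 10.89 and 11.19 in osteoblasts and 10.83, 10.71 and 10.62 in pre-osteoblasts, with differences of -0.45 ± 0.12 (adjusted p = 0.0237) and 0.42 ± 0.12 (adjusted p = 0.0338). Both genes had osteoblasts above the lines on every array. Gla, the alpha-galactosidase with 2 copies of TCACGTGA, had 10.26, 10.04 and 10.45 in the lines, against 11.16, 10.58 and 11.27 in osteoblasts and 11.01, 10.64 and 10.68 in pre-osteoblasts (-0.76 ± 0.19 against osteoblasts, adjusted p = 0.0206). Sgsh, a heparan sulfatase, had 9.12, 8.94 and 8.47 in the lines, against 9.49, 9.41 and 9.52 in osteoblasts and 9.24, 9.43 and 9.14 in pre-osteoblasts (-0.63 ± 0.15 against osteoblasts, adjusted p = 0.0172). In Gla and Sgsh all lines lay below all Kusa4b10 arrays, and neither was called between osteoblasts and pre-osteoblasts. Several of these calls were lost when 1 array was left out. Against osteoblasts, Gla was lost without line 1 or 2 or osteoblast culture 1 or 3 (adjusted p between 0.0531 and 0.0783), Man2b1 without line 2 or 3 or osteoblast culture 1 or 3 (0.0606 to 0.0814), and Sgsh without osteoblast culture 1 or 3 (0.0574 and 0.0602). Between osteoblasts and pre-osteoblasts, Idua and Man2b1 were each lost without osteoblast culture 1 or 3 or pre-osteoblast culture 2 or 3 (0.0864 to 0.0961 for Idua and 0.0914 to 0.114 for Man2b1). Against pre-osteoblasts, Gla was gained without osteoblast culture 2 (0.0307) and Sgsh without line 1 (0.0319).

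Gusb, Galns and Ids did not follow that order. Gusb, the beta-glucuronidase, had log2 levels of 10.01, 10.11 and 10.15 in the lines, against 9.56, 9.86 and 9.53 in osteoblasts and 10.04, 10.27 and 10.05 in pre-osteoblasts. Osteoblasts were the low group, with differences of 0.44 ± 0.10 for osteosarcoma minus osteoblast (1.36-fold, adjusted p = 0.0145) and -0.47 ± 0.10 for osteoblast minus pre-osteoblast (1.38-fold, adjusted p = 0.0115). Galns, a sulfatase of keratan and chondroitin sulfate, had 9.34, 9.16 and 9.49 in the lines and 9.26, 9.18 and 9.26 in osteoblasts, against 9.98, 9.94 and 9.81 in pre-osteoblasts. Pre-osteoblasts lay above all other arrays, with differences of -0.58 ± 0.09 for osteosarcoma (1.49-fold lower, adjusted p = 0.00245) and -0.67 ± 0.09 for osteoblasts (1.59-fold lower, adjusted p = 0.00104). Ids, the iduronate sulfatase, had 11.11, 11.21 and 11.16 in the lines, against 10.83, 10.98 and 10.82 in osteoblasts and 10.98, 10.92 and 10.85 in pre-osteoblasts. All lines lay above all Kusa4b10 arrays, by 0.29 ± 0.06 over osteoblasts (adjusted p = 0.0111) and 0.24 ± 0.06 over pre-osteoblasts (adjusted p = 0.0264). The Gusb call against osteoblasts was lost without osteoblast culture 1 or 3 (adjusted p = 0.0593 and 0.0580), and the Ids call against pre-osteoblasts without line 2 or 3 or pre-osteoblast culture 2 or 3 (0.0531 to 0.0935). Glb1, the beta-galactosidase used as a senescence marker, and Gaa, the acid alpha-glucosidase, were called in no comparison. Glb1 had 10.62, 10.57 and 11.17 in the lines, against 10.99, 10.90 and 11.00 in osteoblasts and 11.29, 11.01 and 11.20 in pre-osteoblasts, and without line 3 it was called lower than in osteoblasts (-0.37, adjusted p = 0.0192, against -0.18 and 0.455 with it) and than in pre-osteoblasts (-0.57, adjusted p = 0.00423, against -0.38 and 0.118 with it). Gaa had 11.65, 11.63 and 11.66 in the lines, against 11.87, 11.58 and 11.91 in osteoblasts and 11.69, 11.27 and 11.41 in pre-osteoblasts, and osteoblasts were called above pre-osteoblasts without osteoblast culture 2 (adjusted p = 0.0343) or pre-osteoblast culture 1 (0.0220). With both these cultures left out, Gaa in osteosarcoma was also called against osteoblasts (-0.25, adjusted p = 0.0377, with -0.14 over all arrays) and against pre-osteoblasts (0.30, adjusted p = 0.0257, with 0.19 over all arrays).

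Of the 4 genes that handle lipids, 3 were lower in osteosarcoma than in osteoblasts, where 12.7% of all genes were. Smpd1, the acid sphingomyelinase, had log2 levels of 11.06, 11.31 and 11.26 in the lines, against 12.00, 11.81 and 11.86 in osteoblasts and 11.94, 11.78 and 11.82 in pre-osteoblasts. The lines lay below all Kusa4b10 arrays, and the Kusa4b10 groups overlapped. The difference was -0.67 ± 0.08 against osteoblasts (adjusted p = 0.000770) and -0.63 ± 0.08 against pre-osteoblasts (adjusted p = 0.00130). Asah1, the acid ceramidase, had 12.40, 12.34 and 12.20 in the lines, against 12.87, 12.69 and 12.92 in osteoblasts and 12.40, 12.24 and 12.42 in pre-osteoblasts. Only osteoblasts stood apart, by -0.51 ± 0.09 for osteosarcoma minus osteoblast (adjusted p = 0.00305) and 0.47 ± 0.09 for osteoblast minus pre-osteoblast (adjusted p = 0.00476). Psap, the precursor of the saposins that present sphingolipids to their hydrolases, had 13.38, 13.05 and 13.35 in the lines, against 13.80, 13.58 and 13.79 in osteoblasts and 13.72, 13.51 and 13.55 in pre-osteoblasts, with the lines lowest. It fell by 0.46 ± 0.11 against osteoblasts (adjusted p = 0.0142), a call lost without osteoblast culture 1 or 3 (0.0573 and 0.0555). Ppt1, which removes palmitate from proteins, had 11.64, 11.41 and 11.40 in the lines, against 11.73, 11.63 and 11.79 in osteoblasts, and its difference of -0.24 ± 0.09 missed the threshold (adjusted p = 0.103) unless line 1 was left out (0.0409).

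Of the 6 membrane proteins, 4 were lower in osteosarcoma than in osteoblasts, 2 were higher in osteosarcoma than in pre-osteoblasts, and 5 were higher in osteoblasts than in pre-osteoblasts. These were 66.7%, 33.3% and 83.3% of the 6, against 12.7%, 9.96% and 10.3% of all genes. Lamp1, a heavily glycosylated coat protein of the lysosomal membrane and the gene with 4 E-box cores, had log2 levels of 12.92, 12.87 and 12.87 in the lines, against 13.34, 13.07 and 13.34 in osteoblasts and 12.67, 12.39 and 12.43 in pre-osteoblasts. The groups did not overlap, and the lines lay between the Kusa4b10 groups. The differences were -0.36 ± 0.10 for osteosarcoma minus osteoblast (adjusted p = 0.0261), 0.39 ± 0.10 for osteosarcoma minus pre-osteoblast (adjusted p = 0.0230) and 0.75 ± 0.10 for osteoblast minus pre-osteoblast (1.68-fold, adjusted p = 0.00103). Cd63, a tetraspanin of late endosomes and exosomes, had the same order, with 13.10, 13.25 and 13.17 in the lines, against 13.54, 13.45 and 13.45 in osteoblasts and 12.93, 12.65 and 12.88 in pre-osteoblasts. Its differences were -0.31 ± 0.08 (adjusted p = 0.0240), 0.35 ± 0.08 (adjusted p = 0.0164) and 0.66 ± 0.08 (adjusted p = 0.000796) in the same comparisons. The osteosarcoma calls against osteoblasts were lost for Lamp1 without any 1 line or osteoblast culture 1 or 3 (adjusted p between 0.0540 and 0.0962) and for Cd63 without line 1 or 3 or osteoblast culture 1 or 3 (0.0508 to 0.0874). Against pre-osteoblasts Lamp1 was lost without line 1 or pre-osteoblast culture 2 or 3 (0.0648 to 0.0820).

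Mcoln1, the calcium channel of the lysosomal membrane whose promoter is shown above, had levels of 11.40, 11.34 and 11.36 in the lines, against 12.44, 12.01 and 12.59 in osteoblasts and 11.74, 11.42 and 11.41 in pre-osteoblasts. The lines were below all Kusa4b10 arrays, by a wide margin from osteoblasts and a narrow one from pre-osteoblasts. It was 1.97-fold lower in osteosarcoma than in osteoblasts (difference -0.98 ± 0.15, adjusted p = 0.00192) and 1.77-fold up in osteoblasts over pre-osteoblasts (0.82 ± 0.15, adjusted p = 0.00457). Scarb2, the receptor that carries glucocerebrosidase to the lysosome, had 10.00, 9.90 and 9.48 in the lines, against 10.65, 10.50 and 10.67 in osteoblasts and 10.00, 9.72 and 10.00 in pre-osteoblasts. Osteoblasts alone stood apart, with -0.81 ± 0.14 for osteosarcoma minus osteoblast (adjusted p = 0.00328) and 0.70 ± 0.14 for osteoblast minus pre-osteoblast (adjusted p = 0.00689). Lamp2, which also serves as the receptor of chaperone-mediated autophagy, had 13.10, 12.87 and 13.20 in the lines, against 13.28, 13.14 and 13.30 in osteoblasts and 13.01, 12.51 and 12.84 in pre-osteoblasts. Only its osteoblast rise over pre-osteoblasts was called (0.46 ± 0.13, adjusted p = 0.0376), and it was lost without line 1, any 1 osteoblast culture, or pre-osteoblast culture 2 or 3 (0.0542 to 0.117). Cd68, a macrophage glycoprotein of the lysosome, lay between 7.95 and 8.35 in all 9 arrays and passed no test.

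The 3 V-ATPase subunits belong to the membrane sector or the catalytic sector of the pump. Atp6v0d1, of the membrane sector, had log2 levels of 11.71, 11.36 and 11.27 in the lines, against 12.09, 12.08 and 12.16 in osteoblasts and 11.77, 11.50 and 11.55 in pre-osteoblasts, so osteoblasts lay above all others. The differences were -0.67 ± 0.12 for osteosarcoma minus osteoblast (adjusted p = 0.00405) and 0.51 ± 0.12 for osteoblast minus pre-osteoblast (adjusted p = 0.0150). Atp6v1h, a regulatory subunit of the catalytic sector, had 10.27, 10.57 and 9.93 in the lines, against 10.52, 10.48 and 10.65 in osteoblasts and 9.92, 9.83 and 9.85 in pre-osteoblasts. All 3 lines lay above the pre-osteoblasts, line 3 by very little, and line 2 reached the osteoblasts. Osteoblasts exceeded pre-osteoblasts (0.68 ± 0.14, adjusted p = 0.00862), and the osteosarcoma differences were -0.29 ± 0.14 from osteoblasts (adjusted p = 0.175) and 0.39 ± 0.14 from pre-osteoblasts (adjusted p = 0.0888). Without line 2 the difference from osteoblasts was -0.45 (0.0168), and without line 3 that from pre-osteoblasts was 0.55 (0.00766). Atp6v1a, the catalytic subunit, had 11.74, 12.02 and 11.60 in the lines, against 11.82, 11.69 and 12.00 in osteoblasts and 11.63, 11.49 and 11.51 in pre-osteoblasts, and was called in no comparison with all arrays. Without line 2 its osteoblast rise over pre-osteoblasts was called (adjusted p = 0.0464), while that call for Atp6v0d1 was lost without osteoblast culture 3 or pre-osteoblast culture 2 or 3 (0.0556 to 0.0578). Grn, the progranulin precursor, had 12.53, 11.97 and 12.53 in the lines, against 12.76, 12.45 and 12.83 in osteoblasts and 12.74, 12.24 and 12.62 in pre-osteoblasts, and was called in no comparison.

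Of the 3 MiT/TFE factors, Mitf was far higher in osteoblasts than in either other group. Its log2 levels were 9.16, 8.74 and 9.22 in the lines, against 10.50, 10.16 and 10.51 in osteoblasts and 8.96, 8.46 and 8.70 in pre-osteoblasts. Osteoblasts lay above all other arrays by more than 0.9, and the lines overlapped the pre-osteoblasts. Mitf was 2.55-fold lower in osteosarcoma than in osteoblasts (difference -1.35 ± 0.17, adjusted p = 0.000832) and 3.21-fold up in osteoblasts over pre-osteoblasts (1.68 ± 0.17, adjusted p = 0.000342). It was the 1 gene of the 40 with another probe set, whose mean level of 4.26 was below the arrays' lower quartiles and whose differences were -0.12 for osteosarcoma minus osteoblast and within 0.01 of 0 for osteoblast minus pre-osteoblast. Averaged over both probe sets, Mitf differed by -0.74 in osteosarcoma against osteoblasts (adjusted p = 0.00456) and by 0.84 in osteoblasts against pre-osteoblasts (adjusted p = 0.00262). Tfeb had 8.67, 8.49 and 8.67 in the lines, against 8.67, 8.68 and 8.55 in osteoblasts and 8.75, 8.94 and 8.78 in pre-osteoblasts. It was called in no comparison, and its largest difference was -0.21 ± 0.08 for osteosarcoma minus pre-osteoblast (adjusted p = 0.0886). Tfe3 had 10.44, 10.60 and 10.50 in the lines, against 10.38, 10.22 and 10.33 in osteoblasts and 10.39, 10.41 and 10.33 in pre-osteoblasts, with all lines above all Kusa4b10 arrays. Its rise of 0.20 ± 0.06 over osteoblasts (adjusted p = 0.0472) was lost without line 2 or 3, any 1 osteoblast culture or any 1 pre-osteoblast culture, with adjusted p between 0.0556 and 0.135.

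**Figure D3:**
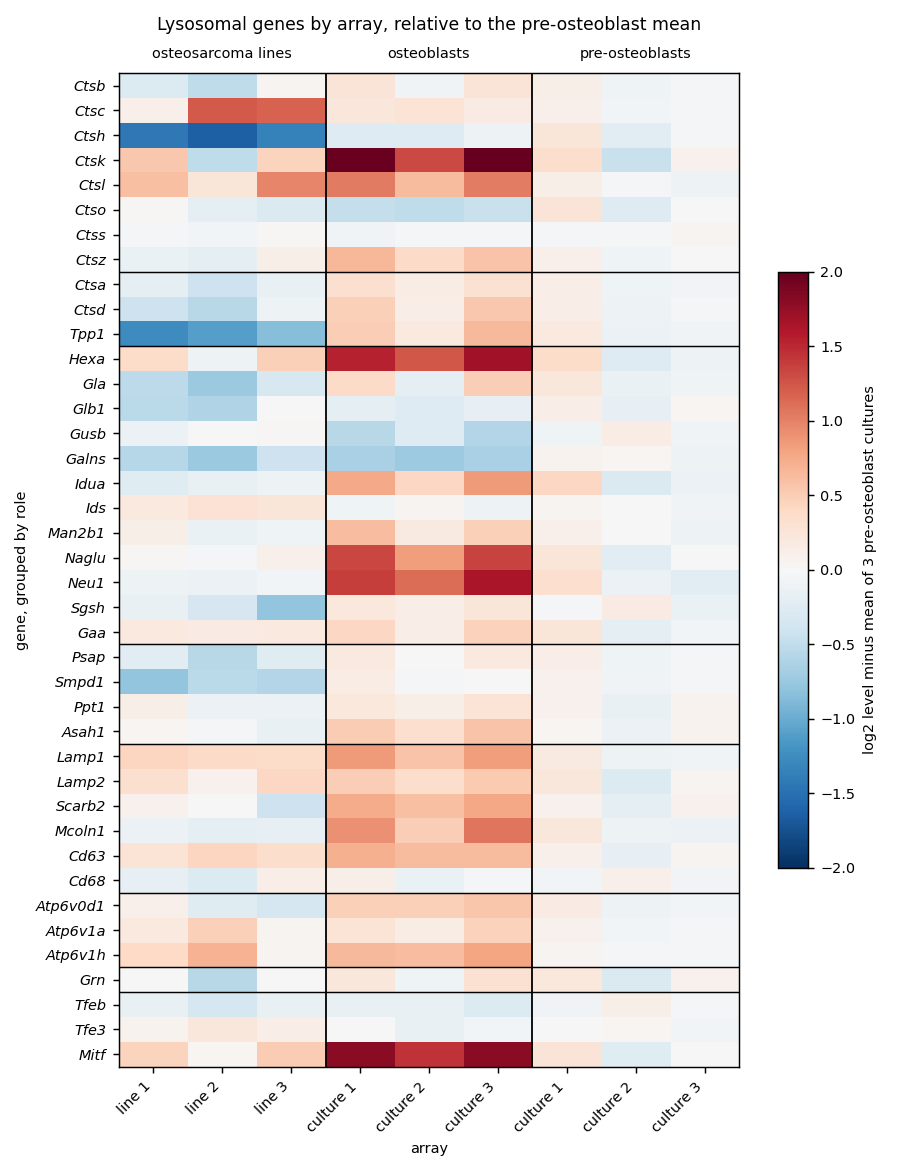
Log2 level of each of the 40 lysosomal genes (rows, by role) in each array (columns: osteosarcoma lines 1 to 3, osteoblast cultures 1 to 3, pre-osteoblast cultures 1 to 3), drawn as the difference from the pre-osteoblast mean of that gene, from blue (lower) to red (higher). Ctsk, Hexa, Naglu, Neu1 and Mitf are red in all osteoblast cultures and palest in culture 2, Ctsh and Tpp1 are blue in all lines, and Ctsc is reddest in lines 2 and 3.

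Read line by line, all 3 osteosarcoma lines lay below all 6 Kusa4b10 arrays for 8 of the 40 genes: Ctsh, Ctsa, Tpp1, Gla, Sgsh, Psap, Smpd1 and Mcoln1. Among all genes 9.47% did so. All 3 lay above for Ids and Tfe3, that is 2 of 40, where 8.45% of all genes did. Line 2 was the lowest line for 23 of the 40 genes, where it was lowest for 32.2% of all genes, and line 3 the highest for 22, where it was highest for 41.4% of all genes. The range between lines had a median of 0.32 over the 40 genes and 0.22 over all genes. It was widest for Ctsc (1.12), Ctsk (1.05), Ctsl (0.73), Sgsh (0.65), Atp6v1h (0.64) and Glb1 (0.60). It was narrowest for Gaa (0.03) and for Lamp1, Mcoln1 and Neu1 (0.06 each). Each line had 1 array, so these differences have no replicate check.

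Osteoblast culture 2 stood apart from cultures 1 and 3. It was the lowest osteoblast culture for 33 of the 40 genes, where it was lowest for 35.7% of all genes, and its median difference from the mean of the other two was -0.20. The gaps were largest in Ctsk (-0.71), Gla (-0.64), Mcoln1 (-0.50) and Naglu (-0.50), and it lay above the others in Gusb (0.31) and Ids (0.15). Over the same arrays, the median difference of culture 2 from the others was 1.11 for 11 mitosis genes, -0.49 for adipocyte markers and 0.61 for osteoblast markers, whose part in the lysosomal values was not tested. Pre-osteoblast culture 1 was the highest of its group for 32 of the 40 genes, where it was highest for 43.7% of all genes, with a median of 0.19 above the others. With both these cultures left out, a choice made after seeing the data, 22 of the 40 genes were higher and 2 lower in osteoblasts than in pre-osteoblasts, and 21 were lower and 2 higher in osteosarcoma than in osteoblasts. At that setting 8.56% of all genes were higher and 11.2% lower in the first comparison. In the second, 10.9% were lower and 12.1% higher.

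The other genes of the pathway, on lists chosen by function, were called mostly in the same directions between osteosarcoma and osteoblasts and between the Kusa4b10 groups. Of 159 measured, 66 were lower and 12 higher in osteosarcoma than in osteoblasts (41.5% and 7.55%, against 12.7% and 14.7% of all genes). In osteoblasts, 62 were higher and 12 lower than in pre-osteoblasts (39.0% and 7.55%, against 10.3% and 15.8%). Between osteosarcoma and pre-osteoblasts, 25 were lower and 22 higher (15.7% and 13.8%, against 13.5% and 9.96%), which is near the shares of all genes. Among 20 other V-ATPase subunits, 13 were lower and none higher in osteosarcoma than in osteoblasts, and 9 were higher and 1 lower in osteoblasts than in pre-osteoblasts. Atp6v0d2, the membrane-sector subunit typical of osteoclasts, had log2 levels of 5.44, 5.33 and 5.17 in the lines, against 7.28, 6.55 and 6.97 in osteoblasts and 5.36, 4.94 and 5.28 in pre-osteoblasts. Only the osteoblasts lay above the arrays' lower quartiles, so the differences are taken against a dim level and may understate the change, with -1.62 ± 0.19 for osteosarcoma minus osteoblast (adjusted p = 0.000527) and 1.74 ± 0.19 for osteoblast minus pre-osteoblast (adjusted p = 0.000404). Tcirg1, the subunit that targets the pump to the osteoclast membrane, was highest in pre-osteoblasts, with differences of -1.25 ± 0.18 in osteosarcoma (adjusted p = 0.00192) and of -0.68 ± 0.18 in osteoblasts (adjusted p = 0.0259).

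Among 31 other membrane proteins and transporters, 13 were lower and 1 higher in osteosarcoma than in osteoblasts, and 14 were higher and 3 lower in osteoblasts than in pre-osteoblasts. The first shares were 41.9% and 3.23%, against 12.7% and 14.7% of all genes. The second were 45.2% and 9.68%, against 10.3% and 15.8%. Ostm1, the partner of the lysosomal chloride transporter ClC-7, had 10.60, 10.76 and 10.21 in the lines, against 12.29, 12.06 and 12.33 in osteoblasts and 11.62, 11.43 and 11.47 in pre-osteoblasts (-1.70 ± 0.14 against osteoblasts, adjusted p = 0.000127). Like Ctsh and Tpp1, it was lower in every line than in every Kusa4b10 array. Tpcn1, an ion channel of endosomes and lysosomes, had 9.61, 10.12 and 9.37 in the lines, against 11.16, 10.72 and 11.23 in osteoblasts and 8.83, 8.73 and 8.51 in pre-osteoblasts (2.34 ± 0.21 for osteoblast minus pre-osteoblast, adjusted p = 0.000161). Ctns, the cystine transporter, fell by 1.69 ± 0.22 in osteosarcoma against osteoblasts (adjusted p = 0.000893).

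Of 14 genes that tag or sort enzymes by the mannose 6-phosphate route and its alternatives, 6 were lower and 2 higher in osteosarcoma than in osteoblasts, and 4 were higher and 3 lower in osteoblasts than in pre-osteoblasts. The first shares were 42.9% and 14.3%, against 12.7% and 14.7% of all genes, so the higher share was near that of all genes. The second were 28.6% and 21.4%, against 10.3% and 15.8%. Sort1, sortilin, which sorts some lysosomal proteins without the tag, had log2 levels of 7.57, 7.67 and 7.70 in the lines, against 10.03, 9.13 and 9.38 in osteoblasts and 6.98, 6.85 and 6.85 in pre-osteoblasts. The groups did not overlap, with -1.86 ± 0.20 for osteosarcoma minus osteoblast (adjusted p = 0.000368) and 2.62 ± 0.20 for osteoblast minus pre-osteoblast (adjusted p = 7.70e-05). Gnptg, a subunit of the enzyme that begins the tag, had 9.75, 9.45 and 9.66 in the lines, against 11.38, 11.13 and 11.32 in osteoblasts and 10.12, 9.60 and 9.83 in pre-osteoblasts (-1.66 ± 0.14 against osteoblasts, adjusted p = 0.000134).

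Of 23 genes of lysosomal nutrient sensing and TFE regulation, 10 were lower and 2 higher in osteosarcoma than in osteoblasts, and 12 were higher and 1 lower in osteoblasts than in pre-osteoblasts. The first shares were 43.5% and 8.7%, against 12.7% and 14.7% of all genes. The second were 52.2% and 4.35%, against 10.3% and 15.8%. Fnip2, a partner of folliculin in the complex that controls where TFE3 and TFEB reside, had levels of 8.90, 9.10 and 8.64 in the lines, against 10.69, 10.26 and 10.77 in osteoblasts and 8.68, 8.61 and 8.57 in pre-osteoblasts (1.95 ± 0.15 for osteoblast minus pre-osteoblast, adjusted p = 9.29e-05). Rragd, a Rag GTPase of the lysosomal surface, had 6.13, 6.08 and 6.29 in the lines, against 8.09, 7.30 and 8.26 in osteoblasts and 6.16, 6.08 and 5.94 in pre-osteoblasts (-1.72 ± 0.22 against osteoblasts, adjusted p = 0.000813, with both other groups at about the lower quartile). Both, like Mitf, were high in osteoblasts alone and lowest there in culture 2. Ppargc1a, the transcriptional coactivator PGC-1alpha, rose by 2.01 ± 0.35 in osteoblasts against pre-osteoblasts (adjusted p = 0.00368). Of 31 autophagy genes, 10 were lower and 2 higher in osteosarcoma than in osteoblasts, and 12 were higher and 1 lower in osteoblasts than in pre-osteoblasts, led by Gabarapl1, of the ATG8 family that coats autophagosomes (1.43 ± 0.16, adjusted p = 0.000542). Autophagy shares were 32.3% and 6.45% in the first comparison and 38.7% and 3.23% in the second, beside the same shares of all genes.

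Among the remaining enzymes, of 12 other proteases and cystatins, 4 were lower and 1 higher in osteosarcoma than in osteoblasts (33.3% and 8.33%). In this comparison 12.7% of all genes were lower and 14.7% higher. Ctsf, a further cysteine cathepsin, fell by 2.00 ± 0.22 (adjusted p = 0.000449), while Lgmn, the asparaginyl endopeptidase that processes cathepsins, was 0.96 higher. Of 14 other glycosidases and sulfatases, 4 were lower and 3 higher (28.6% and 21.4%), and Hpse, the heparanase that cleaves heparan sulfate, was 1.87 ± 0.27 higher in osteosarcoma (adjusted p = 0.00152). Of 14 other lipid and nucleic acid hydrolases, 6 were lower and 1 higher (42.9% and 7.14%). Smpdl3a, a relative of Smpd1, fell by 2.41 ± 0.52 (adjusted p = 0.00959), and Acp5, the tartrate-resistant phosphatase of osteoclasts, was higher than in osteoblasts (0.70) and pre-osteoblasts (1.06 ± 0.10, adjusted p = 0.000329).

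**Figure D4:**
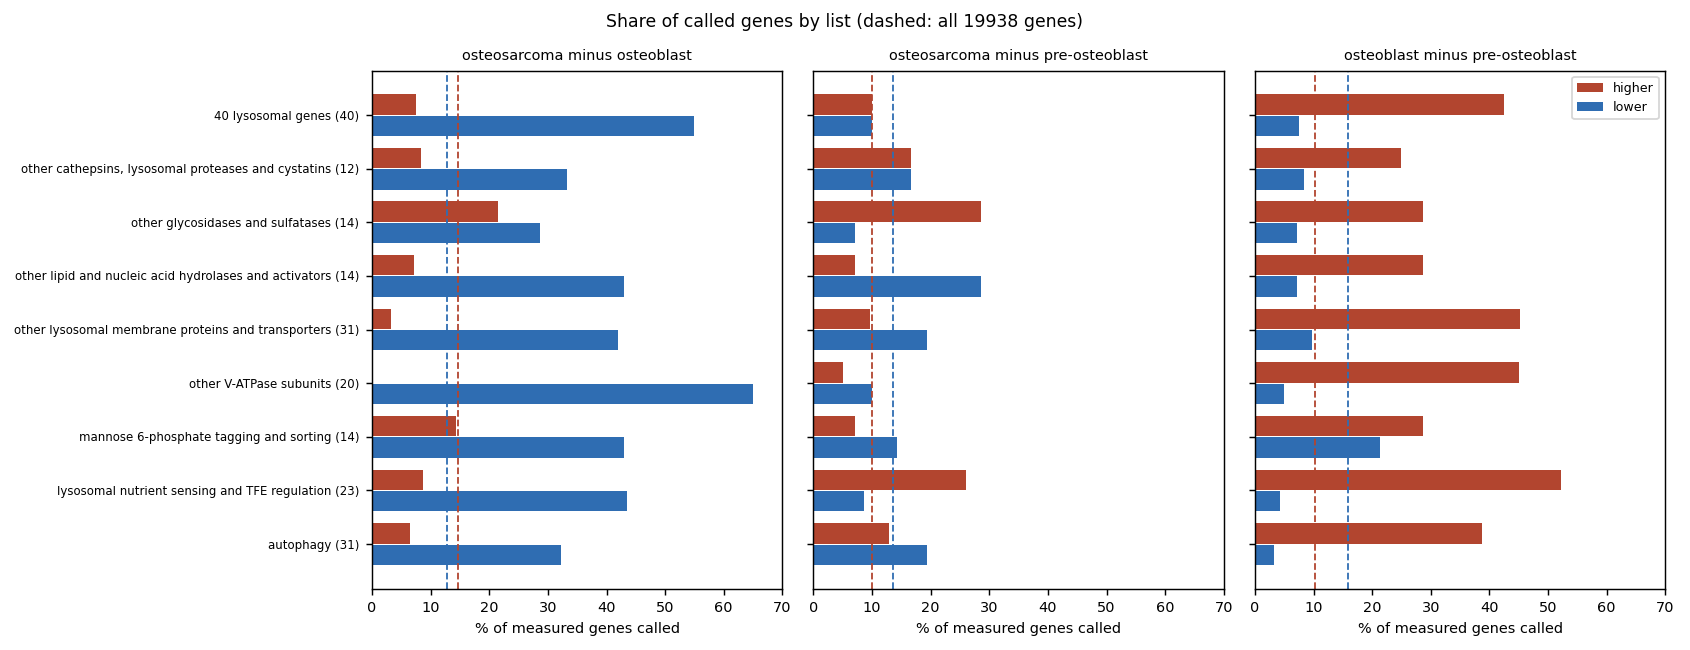
Percentage of measured genes called higher (red) or lower (blue) (x axis) for the 40 lysosomal genes and 8 further lists of lysosomal and autophagy genes (y axis, number measured in brackets) in each comparison, with dashed lines at the share of all 19938 genes. For osteosarcoma minus osteoblast the lower share is above its dashed line in all lists, and for osteoblast minus pre-osteoblast the higher share is.

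Other cell states moved with the groups. All 11 mitosis genes measured were higher in osteosarcoma than in osteoblasts and lower in osteoblasts than in pre-osteoblasts, where 14.7% and 15.8% of all genes were. None was called between osteosarcoma and pre-osteoblasts. Their mean level per array was 11.24 to 11.73 in the lines, against 8.43 to 9.64 in osteoblasts and 10.78 to 11.56 in pre-osteoblasts. Adipocyte markers averaged 7.70 to 8.17 in the lines, against 10.96 to 11.70 in osteoblasts and 8.60 to 9.16 in pre-osteoblasts, and all 10 were lower in osteosarcoma than in osteoblasts. Osteoblast markers averaged 8.99 to 9.67 in the lines, against 11.46 to 12.25 in osteoblasts and 8.63 to 9.09 in pre-osteoblasts, with 5 of 9 lower in osteosarcoma than in osteoblasts and 7 of 9 higher in osteoblasts than in pre-osteoblasts. Among all genes 12.7% were lower in the first of these comparisons and 10.3% higher in the second. The part of growth state, adipocyte-like cells or osteoblast maturity in the lysosomal differences was not tested. Among the other cell types, 14 macrophage and haematopoietic markers averaged 6.33 to 6.43 in the lines, against 6.35 to 6.52 in osteoblasts and 6.35 to 6.40 in pre-osteoblasts, close to the lower quartile of the arrays, with 2 lower and 1 higher in osteosarcoma than in osteoblasts. These were 14.3% and 7.14%, against 12.7% and 14.7% of all genes, so the lower share was near that of all genes. The leukocyte gene Ptprc lay between 5.97 and 6.21 and the macrophage receptor Csf1r between 6.56 and 6.93. Cybb, an oxidase subunit of phagocytes, was 1 of the lower ones, with 5.93, 5.99 and 5.98 in the lines, against 8.68, 7.50 and 8.23 in osteoblasts and 6.07, 5.88 and 6.12 in pre-osteoblasts (-2.17 ± 0.25 for osteosarcoma minus osteoblast, adjusted p = 0.000527), where the lines and pre-osteoblasts lay at about the lower quartile and the difference may be understated. The 10 osteoclast markers averaged 7.15 to 7.32 in the lines, against 7.34 to 7.44 in osteoblasts and 7.06 to 7.17 in pre-osteoblasts, and 2 were lower and 1 higher in osteosarcoma than in osteoblasts. Of 9 fibroblast and stroma markers, 3 were lower and 3 higher in osteosarcoma than in osteoblasts. The lower and higher shares were 20% and 10% for osteoclast markers and 33.3% each for fibroblast and stroma markers, beside the same shares of all genes.

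The lysosomal genes were expressed above most genes, and calls are commoner among such genes. Of the 40, 38 lay above the median gene level of 7.97, all but Ctss and Ctsc. Among genes above that median, 21.4% were lower and 25.6% higher in osteosarcoma than in osteoblasts, and of the 38, 22 were lower and 2 higher. Between osteosarcoma and pre-osteoblasts, 24.1% were lower and 16.2% higher, and of the 38, 5 were lower and 4 higher. Both shares of the 38 were there smaller than those of genes above the median. In osteoblasts against pre-osteoblasts, 17.1% were higher and 29.1% lower, and of the 38, 18 were higher and 3 lower. The F test called 65.3% of the genes above that median, and 29 of the 38. With each array centred on its median, 10.2% of all genes were lower and 18.5% higher in osteosarcoma than in osteoblasts, and of the 40, 20 were lower and 4 higher.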

How the data were processed

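RNA was measured on 9 arrays, 3 per group. The deposited log2 level of each probe set was made by the authors with RMA on the build mm9, according to the submitters' processing notes. Neither the version of RMA nor any filter is given in the sources used. RMA normalizes arrays to each other, so differences are relative ones.

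Of 35556 probe sets, 21789 had 1 gene symbol in the platform annotation. Probe sets with several symbols (1621) or with no symbol (12146) were not used, which gave 19938 genes. Using limma 3.58.1 (R 4.3.3), lmFit and eBayes fitted 3 group means to the 9 arrays together (two-sided, 6 residual and 2.19 prior degrees of freedom), after a check on simulated data. The 3 group pairs and a moderated F test were run. Alternatives were a filter on dim genes, averaging a gene's probe sets, repeated quantile normalization, median-centred arrays, a trended prior, array weights, a fit of the 2 compared groups, the replicate block, and leaving out each array in turn. Promoter matches were exact and had no test.

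The named genes are all 40 lysosomal genes, up to 2 of the largest called rises and falls per further list and comparison, and markers. The genes and lists were chosen with earlier results of these data known. Same-numbered osteoblast and pre-osteoblast cultures deviated from their group means with correlations of 0.15, 0.18 and 0.03. For differently numbered cultures the correlations were -0.16 to 0.08. The labels call the cultures independent samples and state no pairing, so the numbers were not taken to pair them. No duplicate arrays were found, as at most 4.33% of values were equal between arrays of a group. The number of arrays limits the precision.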

Additional observations from a re-analysis of the deposited data

How the results depend on the processing

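Of 53 called differences of the 40 genes, 37 kept their call and sign under every alternative and none turned sign. Of 67 uncalled differences, 16 turned sign under some alternative, all of at most 0.16. Leaving out 1 array gave 16 to 22 genes lower and 1 to 4 higher in osteosarcoma than in osteoblasts (median -0.51 to -0.34), 4 to 6 lower and 1 to 4 higher in osteosarcoma than in pre-osteoblasts (median -0.11 to -0.02), and 13 to 19 higher and 2 to 3 lower in osteoblasts than in pre-osteoblasts (median 0.26 to 0.44). Over all genes the shares moved as well. They were 9.17% to 12.7% lower and 11.1% to 15.8% higher in the first comparison. In the second they were 9.69% to 13.8% lower and 6.14% to 10.6% higher. In the third they were 7.09% to 11.6% higher and 11.7% to 17.9% lower. The lowest counts came without osteoblast culture 1 or 3 (16 lower and 1 higher against osteoblasts), without pre-osteoblast culture 2 or 3 (1 higher in osteosarcoma than in pre-osteoblasts), and without osteoblast culture 3 or pre-osteoblast culture 2 or 3 (13 higher in osteoblasts than in pre-osteoblasts). In those settings the shares of all genes were also below those with all arrays. The F test called 20 to 30, and 31% to 40% of all genes. With 1 array weight per group, 2 genes were higher in osteosarcoma than in pre-osteoblasts, where 9.01% of all genes were. Without osteoblast culture 2 and pre-osteoblast culture 1, a choice made after the data were seen, the median for osteoblasts against pre-osteoblasts was 0.56. Settings with all arrays in the fit also ended some calls and gained others. Genes higher in osteoblasts than in pre-osteoblasts rose from 17 to 19 with repeated quantile normalization and to 20 with 1 array weight per group. With median-centred arrays they fell to 16. The shares of all genes were 12.1%, 13% and 9.67%, against 10.3% in the main fit. Genes higher in osteosarcoma than in pre-osteoblasts rose from 4 to 6 with repeated quantile normalization (12.8% of all genes, against 9.96%). The calls ended against osteoblasts were Man2b1 and Lamp1 with median-centred arrays (adjusted p = 0.0563 and 0.0607), Lamp1 and Tfe3 with 1 array weight per group (0.0584 and 0.0711), and Tfe3 among genes above the median level or with a trended prior (0.0535 and 0.0898). Against pre-osteoblasts, 1 array weight per group ended Ctsl, Ids and Lamp1 in osteosarcoma (0.0523, 0.0508 and 0.0536), and centring ended Man2b1 in osteoblasts (0.0517). In a fit of the 2 compared groups alone, Man2b1 (0.0586) and Tfe3 (0.0956) against osteoblasts and Ctsl (0.0815) against pre-osteoblasts were lost. The cause of these shifts was not tested, and a lost call with fewer arrays is not a smaller difference.

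With the replicate number as a block, in a fit of the Kusa4b10 arrays alone, 21 genes were higher and 3 lower in osteoblasts than in pre-osteoblasts (median 0.31). The fit of the same arrays without the block gave 18 and 3, and the fit of all 9 arrays 17 and 3. The shares of all genes were 11.6% and 17.9% with the block, 12.7% and 19% without it, and 10.3% and 15.8% with all 9 arrays. Osteoblast cultures 1 and 2 correlated best with their own number (0.15 and 0.18), and osteoblast culture 3 with pre-osteoblast culture 1 (0.08).

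The group of 3 lines, each with 1 array, cannot separate a line's own state from array error, and Ctss and Ctsc lie near or below the arrays' lower quartile, where signal is close to background.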
